A study of Mus musculus with 8 samples.

Results

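The genes followed here are 10 of the unfolded protein response, read in subconfluent and confluent cultures of mouse aortic endothelial cells. They are Atf6, Xbp1, Atf4, Ddit3, Hspa5, Hsp90b1, Hyou1, Dnajb9, Sdf2l1 and Herpud1, and every probe set whose annotation gives exactly 1 of these symbols was taken. That gave 10 probe sets for 9 of the 10 genes, among 12422 probe sets and 8251 genes in all. Dnajb9 had 2 probe sets, and no probe set carried the symbol Sdf2l1 alone, so that gene is not analysed here. A probe set is a group of short oligonucleotides that together report 1 transcript. Of the 9 genes, 7 reached the mean signal of 200 over all arrays that was required for a test, and Atf6 and Hyou1 did not.

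RNA was measured on 8 single-colour Affymetrix mouse arrays, 1 per sample. The 4 samples labelled Subconfluent came from cultures below 50% confluency, and the 4 labelled Confluent from a mature monolayer. The labels give the same number of cells for every sample and name no treatment, genotype, mouse strain, age or passage for either group. The comparison asks which transcripts differ between cells with free space around them and cells that have filled the dish. Both groups are numbered 1 to 4 as experiments, and arrays of the same number deviated from their group means together, so a fit with the experiment number as a block stands beside the unpaired fit where it changes a call. The arrays' own scaling factors ran from 3.05 to 13.3, and the number of arrays limits the precision. The labels count 4 experiments per group but do not say what was repeated in each, so p-values measure the spread between these samples, which may be technical.

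The labelled cell type was only partly borne out by its markers. Of 22 endothelial markers with a probe set, 5 reached a mean signal of 200 (Vcam1, Cd34, Eng, Ets1 and Procr). The highest signal on any array was 163 for Pecam1, 204 for Kdr and 126 for Flt1, and the 7 lowest markers by their highest signal (Cdh5, Tek, Tie1, Vwf, Nos3, Icam2 and Cldn5) lay between 2.40 and 31.1 on every array. Of 22 fibroblast and pericyte markers, 17 did. Their summed signal was 53914 to 74262 on the Subconfluent arrays and 85123 to 124830 on the Confluent arrays, without overlap. By the limma test described below, 6 of the 17 fell and 0 rose, where 4.39% of all tested genes fell. The macrophage sum was also lower, at 1919 to 2607 on the Subconfluent arrays and 2775 to 4077 on the Confluent arrays. The groups did overlap in the mean log2 deviation of the macrophage markers from their Confluent means. It was -0.275 to -0.120 on the Subconfluent arrays and -0.125 to 0.0795 on the Confluent arrays. Only 1 of the 13 macrophage markers reached a mean of 200, Cd14 at 1292 to 3276, and Cd14 neither rose nor fell. Over all arrays Cd68 lay at 160 to 229 and Csf1r at 140 to 217, but Ptprc only at 4.6 to 18, Itgam at 15.8 to 39.3 and Adgre1 at 2.2 to 63.6. The other sums overlapped. The smooth muscle sum was 3150 to 11223 on the Subconfluent arrays and 4014 to 5968 on the Confluent arrays, with 1 marker that fell. The epithelial and mesothelial sum was 1652 to 2440 on the Subconfluent arrays and 1974 to 5761 on the Confluent arrays. The endothelial sum was 6197 to 8726 on the Subconfluent arrays and 6771 to 8977 on the Confluent arrays. What part the signal of the fibroblast, pericyte and macrophage lists has in the differences below was not tested. In bulk samples, fewer cells of a type and less RNA per cell cannot be told apart.

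The unfolded protein response is the signalling system by which a cell adjusts the endoplasmic reticulum to its load of new secretory and membrane proteins. Membrane sensors in that compartment, the kinase and nuclease IRE1, the kinase PERK and the membrane-bound transcription factor ATF6, are held in check by the chaperone BiP, the product of Hspa5. When they are released, IRE1 splices the Xbp1 transcript, PERK slows translation while favouring that of ATF4, and ATF6 is cut free to enter the nucleus. The targets include chaperones, degradation factors, amino acid enzymes and, under lasting stress, Ddit3.

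None of the 7 tested genes passed in the unpaired fit, and 1 did in the paired one. That gene was Xbp1, which was lower in Subconfluent cells, while the classical chaperone targets Hspa5 and Hsp90b1 passed in neither fit. By limma's test on log2(signal + 50), with Benjamini-Hochberg adjustment over 6007 probe sets and a threshold of 0.05, 0 of 7 genes rose and 0 fell, where 7.22% of all 4670 tested genes were called (2.83% rose and 4.39% fell). At an unadjusted p under 0.05 it was 1 of 7 genes, against 27.2% of all. With the experiment number as a block 0 rose and 1 fell, where 22.2% of all genes were called (10.1% rose and 12.1% fell). Counted by probe set, the shares over the table were 6.81% without the block (2.75% higher and 4.06% lower in Subconfluent cells) and 21.2% with it (9.94% and 11.3%). Of the 7 differences 6 were negative, as were 2313 of the 4670 over all tested genes. The median of the 7 was -0.26 on the log2 scale, against 0.0045 over all tested genes. Without Dnajb9, which reached the signal minimum through 1 Confluent array, 5 of 6 were negative with a median of -0.25. All differences are Subconfluent minus Confluent on that scale, which understates the change of genes with low signal.

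**Figure D1:**
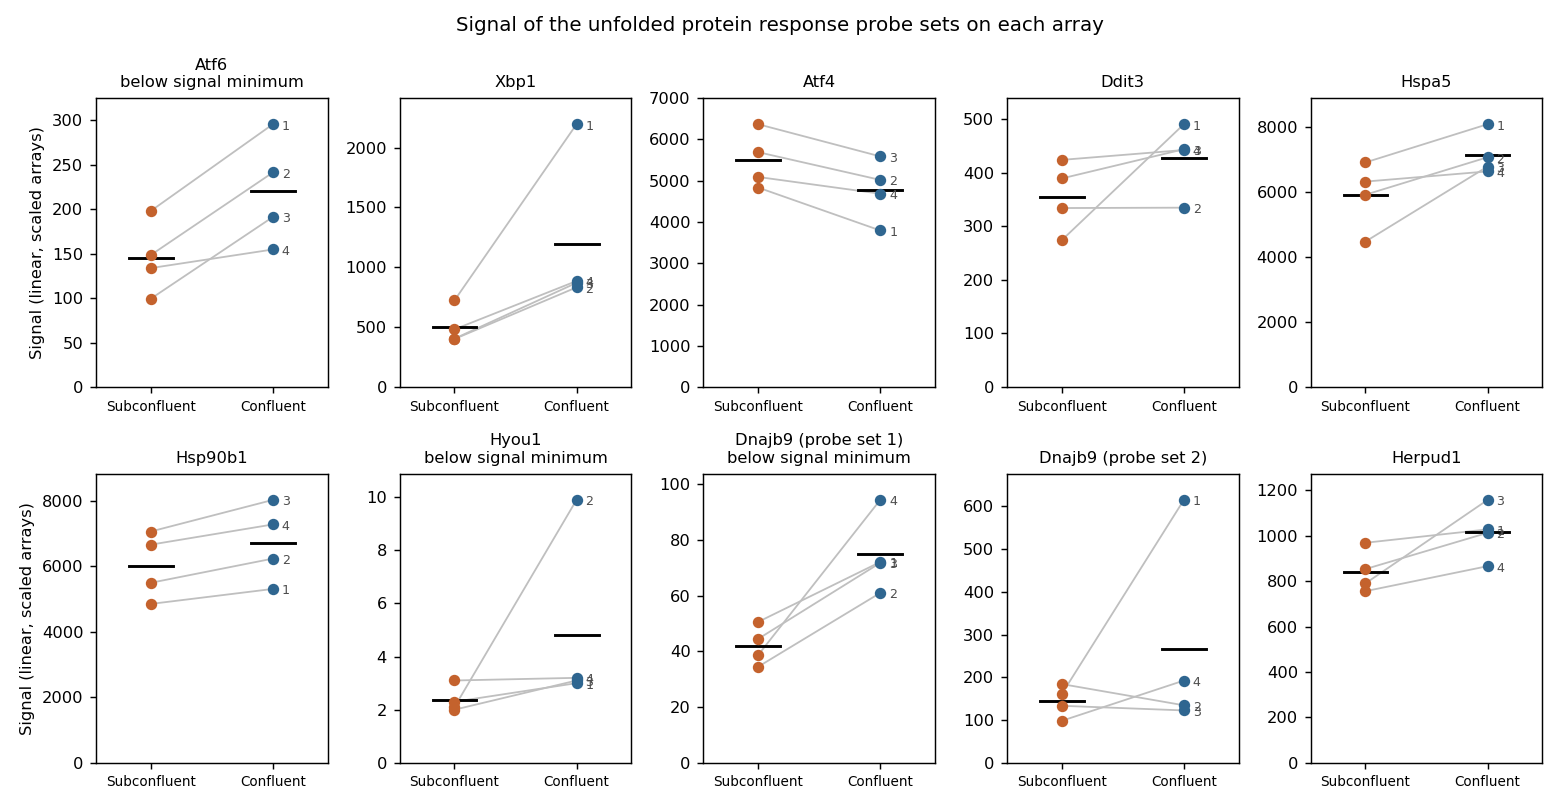
Linear signal (y axis, from 0) of the 10 probe sets on each array, Subconfluent left and Confluent right. Points are single arrays, grey lines join arrays of the same experiment number (given beside the Confluent point) and black bars are group means (n = 4 each). Xbp1 and the first Dnajb9 probe set show no overlap between the groups, and the second Dnajb9 probe set and Xbp1 each have 1 Confluent array far above the other 3.

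Atf6 encodes the sensor that becomes a transcription factor once it is cut. Its signal was 198, 148, 99.3 and 134 on the Subconfluent arrays 1 to 4, and 295, 241, 191 and 155 on the Confluent arrays 1 to 4. The Subconfluent array was lower in all 4 pairs, but the groups overlapped. Group means were 145 ± 40.9 in Subconfluent cells and 221 ± 61.2 in Confluent cells (SD, n = 4 each). With a mean over all arrays of 183, Atf6 lay just under the minimum and was not tested. With no minimum its difference of -0.47 did not pass (limma adjusted p = 0.368).

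Xbp1 encodes the transcription factor whose transcript IRE1 splices, and it showed the largest difference of the 7 tested genes. Its signal was 724, 402, 405 and 482 on the Subconfluent arrays, against 2195, 833, 871 and 886 on the Confluent arrays. Every Subconfluent value lay below every Confluent value, a separation found in this direction for 9.25% of all tested genes, or 17.8% in either direction. Confluent replicate 1 stood far above the other 3. The means were 503 ± 152 in Subconfluent cells and 1196 ± 666 in Confluent cells (SD, n = 4 each). The log2 difference was -1.08 ± 0.30 (SE), a 2.12-fold lower level, with a 95% interval from -1.75 to -0.42 (limma adjusted p = 0.0549). In the paired fit Xbp1 fell by the same amount with a standard error of 0.15 and an interval from -1.43 to -0.74 (limma adjusted p = 0.00280), and over the alternatives the adjusted p ran from 0.00280 to 0.239. Within the pairs the difference was -1.54, -0.97, -1.02 and -0.81, so that it was negative in 4 of 4. The paired fit left 3 residual degrees of freedom, against 6 in the unpaired one. Without Confluent replicate 1 the unpaired difference was -0.76 (adjusted p = 0.0749), and without Confluent replicate 2 it was -1.21 and passed (adjusted p = 0.0429). With chip lot as a fixed block it was -1.18 (limma adjusted p = 0.0166). Lot B held only Confluent arrays and lot D only a Subconfluent array, so that difference comes from lots A and C alone. Lot and culture state are thus partly confounded. The Xbp1 difference was -1.54 within lot A, with 1 array per group and no test. It was -0.90 within lot C, with 2 Subconfluent arrays and 1 Confluent array. One signal per gene does not tell the spliced from the unspliced transcript.

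Atf4, the transcription factor favoured when PERK slows translation, had the only positive difference. The Subconfluent arrays had 4833, 5690.4, 6367 and 5089.7, against 3794, 5019, 5588 and 4684 on the Confluent arrays. All 4 pairs were higher in Subconfluent cells, by 0.12 to 0.35, but the groups overlapped. The difference was 0.21 ± 0.16 (SE), with an interval from -0.15 to 0.56 (limma adjusted p = 0.462; 0.201 in the paired fit).

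Ddit3 encodes CHOP, a transcription factor linked to cell death under lasting stress and a target of ATF4. Its signal was 274, 334, 389 and 424 on the Subconfluent arrays and 490.2, 335, 444 and 442 on the Confluent arrays. The groups overlapped, and in pairs 2 and 4 the values were nearly equal, with differences of -0.0026 and -0.055. Over all arrays the difference was -0.24 ± 0.18 (SE), with an interval from -0.63 to 0.15 (limma adjusted p = 0.441).

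Among the chaperones, Hspa5 encodes BiP, the main Hsp70 of the endoplasmic reticulum. Its signal was 6924, 5929, 4486 and 6333 on the Subconfluent arrays, against 8101, 7083, 6796 and 6646 on the Confluent arrays. The Subconfluent array was lower in all 4 pairs, most in pair 3 (-0.59) and least in pair 4 (-0.069), and Subconfluent replicate 1 lay within the Confluent range. The difference was -0.29 ± 0.16 (SE), a 1.22-fold lower level that did not pass (limma adjusted p = 0.291; 0.121 in the paired fit). Its interval ran from -0.64 to 0.07 (from -0.55 to -0.02 in the paired fit), and without Subconfluent replicate 3 the difference was -0.16.

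Hsp90b1 encodes GRP94, the Hsp90 of the same compartment. Its signal was 4847, 5491, 7056 and 6655 on the Subconfluent arrays, against 5304, 6230, 8020 and 7271 on the Confluent arrays. The values varied more between experiments than between culture states: in both groups experiment 1 was lowest and experiment 3 highest. Within the pairs the difference was narrow, from -0.18 to -0.13. Over all arrays it was -0.15 ± 0.18 (SE), with an interval from -0.54 to 0.23 (limma adjusted p = 0.642; in the paired fit 0.307, with an interval from -0.38 to 0.07).

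Hyou1 encodes a large Hsp70-like chaperone that also acts as nucleotide exchange factor for BiP. Its probe set lay between 2.00 and 3.10 on the Subconfluent arrays and between 3.00 and 9.90 on the Confluent arrays, far below the minimum of 200, so no difference is given. Dnajb9 encodes ERdj4, a J-domain partner of BiP that represses IRE1. Its brighter probe set had 161, 184, 133 and 98.2 on the Subconfluent arrays, against 615, 134.5, 122.5 and 192 on the Confluent arrays. The groups overlapped, and Confluent replicate 1 stood alone at the top. The difference of -0.48 ± 0.39 (SE) did not pass (limma adjusted p = 0.478) and was -0.05 without that array. The mean of 205 over all arrays reached the minimum only through that array, the other 7 lying between 98.2 and 192, so the test rests on a filter passed through the higher group. The dimmer probe set, at 34.5 to 50.6 on the Subconfluent arrays and 61.0 to 94.4 on the Confluent arrays, did not overlap between the groups but was too dim to be tested; with no minimum its difference was -0.44 (adjusted p = 0.208).

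Herpud1 encodes HERP, a membrane protein of the machinery that sends misfolded proteins to the proteasome. It had 969, 853, 790.3 and 756 on the Subconfluent arrays, against 1028, 1013, 1158 and 866 on the Confluent arrays. The Subconfluent array was lower in all 4 pairs, by 0.08 to 0.52, and Subconfluent replicate 1 overlapped the Confluent range. The difference was -0.26 ± 0.15 (SE), with an interval from -0.59 to 0.08 (limma adjusted p = 0.320; 0.199 in the paired fit).

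**Figure D2:**
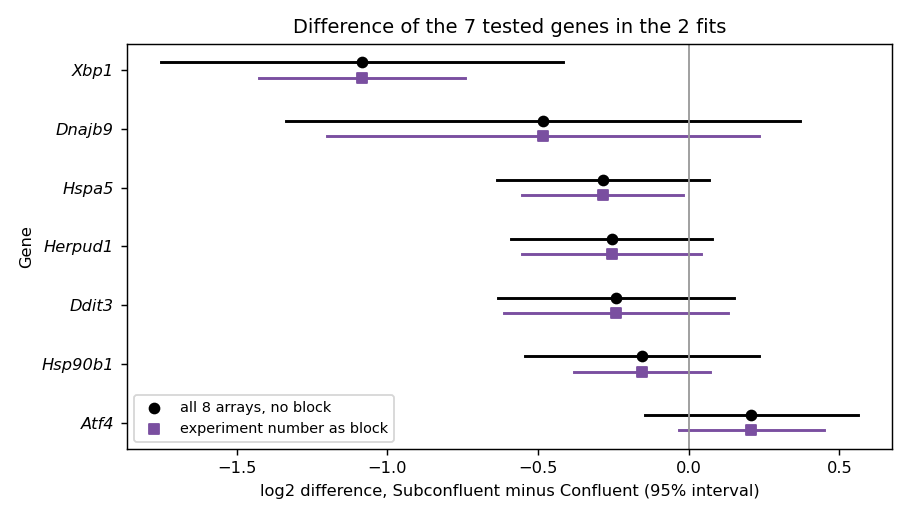
Log2 difference (x axis, Subconfluent minus Confluent) of the 7 tested genes with its 95% interval, from all 8 arrays without a block (black circles) and with the experiment number as a block (purple squares). Without a block only the interval of Xbp1 (-1.75 to -0.42) lies clear of 0, and Atf4 is the one gene to the right of it.

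Side by side, the Xbp1 difference lay below that of Atf4, Ddit3, Hspa5, Hsp90b1 and Herpud1 in 4 of 4 pairs and below that of Dnajb9 in 3 of 4. Xbp1 was singled out for the largest difference on these same arrays, so this order follows in part from that choice and is a description. Whether these differences differ from each other was not tested. The genes also varied differently among the Confluent arrays. Relative to the Confluent mean, replicate 1 stood at 0.97 for Xbp1 and 1.31 for Dnajb9, at 0.18 for Hspa5 and 0.02 for Herpud1, and at -0.31 for Atf4 and -0.32 for Hsp90b1.

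The stretches upstream of these genes are shown because the chaperone and degradation genes are known to carry elements through which ATF6 and XBP1 act. RefSeq's table for GRCm38.p6 held the 250 bases before the annotated start for 8 of the 10 genes. Both strands were searched for 4 motifs. The endoplasmic reticulum stress element, ERSE, whose fixed letters are the capitals in the Hspa5 line below, was present in 0.113% of 32851 stretches of the same length, and in those of Hspa5 and Hsp90b1. Its shorter form, ERSE-II, the capitals nearest the start in the Herpud1 line with any base in the gap, was present in 0.0304% and in that of Herpud1. The XBP1-type element UPRE (TGACGTGG) was present in 0.563% and in none of the 8. The element bound by ATF4 with C/EBP partners, CARE (TGATGCAA), was present in 0.791% and in that of Herpud1. ERSE and ERSE-II share the letters CCACG, but no matches overlapped. The stretches of the 3 genes with a match and of Xbp1, the gene with the largest difference, follow in the direction of transcription and end at the base before the start, with the fixed letters of each match in capitals. They lie at chr2:34771840-34772089 (plus strand) for Hspa5, chr10:86705445-86705694 (minus strand) for Hsp90b1, chr8:94386179-94386428 (plus strand) for Herpud1 and chr11:5520391-5520640 (plus strand) for Xbp1.
Hspa5: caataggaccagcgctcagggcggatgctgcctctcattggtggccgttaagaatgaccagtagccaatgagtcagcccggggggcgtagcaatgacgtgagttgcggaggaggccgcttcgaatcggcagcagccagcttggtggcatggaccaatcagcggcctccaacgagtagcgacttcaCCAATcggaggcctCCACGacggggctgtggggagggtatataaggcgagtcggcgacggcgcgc
Hsp90b1: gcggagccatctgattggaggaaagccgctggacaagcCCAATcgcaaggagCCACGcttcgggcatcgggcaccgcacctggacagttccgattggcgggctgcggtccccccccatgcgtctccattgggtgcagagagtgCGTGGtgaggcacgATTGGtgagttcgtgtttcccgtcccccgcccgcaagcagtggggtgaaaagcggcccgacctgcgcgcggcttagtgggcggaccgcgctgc
Herpud1: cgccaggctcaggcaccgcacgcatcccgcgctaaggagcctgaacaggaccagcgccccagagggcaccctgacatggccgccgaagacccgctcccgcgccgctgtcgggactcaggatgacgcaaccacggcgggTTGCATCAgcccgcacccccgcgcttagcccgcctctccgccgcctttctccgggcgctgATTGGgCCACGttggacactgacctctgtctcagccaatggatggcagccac
Xbp1: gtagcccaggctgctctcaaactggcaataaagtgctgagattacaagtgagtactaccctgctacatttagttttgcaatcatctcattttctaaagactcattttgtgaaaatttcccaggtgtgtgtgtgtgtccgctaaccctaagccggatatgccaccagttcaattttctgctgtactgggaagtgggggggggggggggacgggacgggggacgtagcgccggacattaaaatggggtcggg
In Hspa5 the ERSE began 65 bases before the start. Hsp90b1 held 2, beginning 212 bases before the start and, on the opposite strand, 107 bases before it. Herpud1 held the ERSE-II from 52 bases before the start and the CARE, on the opposite strand, from 112. Xbp1, Atf4, Ddit3, Dnajb9 and Sdf2l1 had no match in this window, which says only that these letters are not in it. The 3 genes with a match had log2 differences of -0.29, -0.15 and -0.26 in the order Hspa5, Hsp90b1 and Herpud1, and none of them passed.

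**Figure D3:**
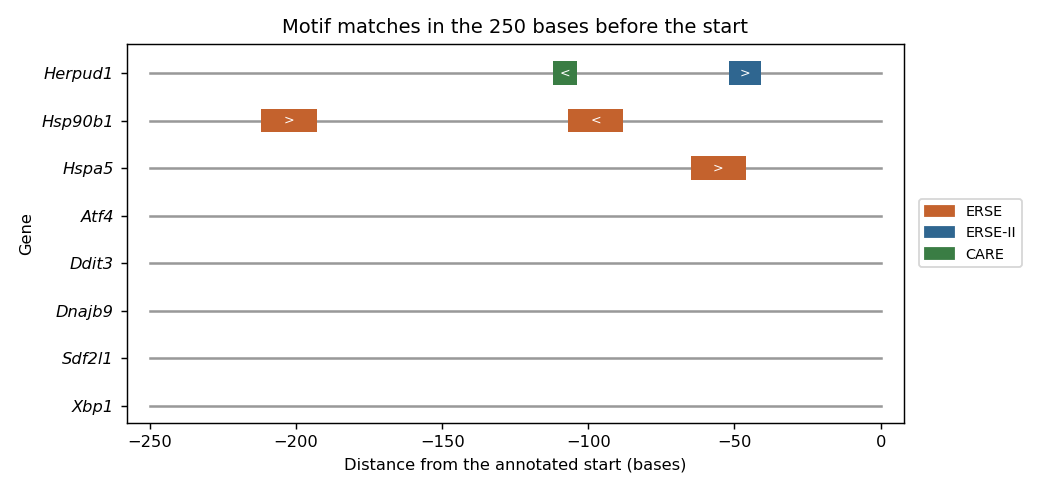
Matches of the searched motifs in the 250 bases before the annotated start of 8 genes (x axis, distance in bases, 0 at the start). Boxes are matches, coloured by motif, and the arrowhead in each gives its strand relative to the gene. Matches lie in Herpud1, Hsp90b1 and Hspa5, and the other 5 genes show none.

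The rest of the pathway was read from lists, 1 probe set per gene. Of the other sensors and signal transducers, 0 of 9 tested genes rose and 0 fell, where 2.83% of all tested genes rose and 4.39% fell. An unadjusted p under 0.05 was found for 1 of the 9, against 27.2% of all. The list's median of 0.09 ran from -0.07 to 0.21 over the alternatives. Creb3l1, a membrane-bound relative of ATF6, had 1271, 1329, 1479 and 1018 on the Subconfluent arrays, against 1826, 1661, 2148 and 1454 on the Confluent arrays, and the groups overlapped. The difference of -0.46 (limma adjusted p = 0.123) passed only with the block (0.0276), and there not without pair 1, 3 or 4 (0.0699 to 0.117). Mbtps1, the protease that makes the first cut in ATF6, was at -0.37 (adjusted p = 0.204), the cell death gene Bak1 at 0.25 (0.306) and the stress kinase gene Map3k5 at -0.47 (0.358). Eif2ak3, which encodes PERK, lay under the signal minimum, and no probe set carried the symbol Ern1, the gene of IRE1, alone (both named after their values were seen). With no signal minimum 1 of the 13 genes of this list with a probe set fell, where 136 of all 12422 probe sets were lower and 72 higher. That gene was Casp12, a caspase linked to the endoplasmic reticulum in mouse (also named after its values were seen). It had 71.4, 23.6, 63.1 and 57.5 on the Subconfluent arrays, against 321, 152, 163 and 185 on the Confluent arrays (-1.28, adjusted p = 0.0378).

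Targets of ATF4 and CHOP did not share a direction. Of 18 tested genes 0 rose and 1 fell, where 2.83% of all tested genes rose and 4.39% fell. The unadjusted p was under 0.05 for 7 of the 18, against 27.2% of all. With the block 2 rose and 3 fell, where 10.1% of all tested genes rose and 12.1% fell. The list's median was 0.13, and it was -0.03 within lot A. The gene that fell was Gadd45a, a growth arrest gene that stress pathways other than this one also induce. It had 224, 204, 175 and 288 on the Subconfluent arrays, against 1750.4, 511, 422 and 663 on the Confluent arrays. The groups did not overlap, and the difference was -1.50 ± 0.36 (SE, limma adjusted p = 0.0332; 0.00751 with the block). The call ended without any 1 of the 4 Subconfluent arrays or Confluent replicate 4 (adjusted p from 0.0608 to 0.0780), and with no signal minimum (0.0606), and without Confluent replicate 1 the difference was -1.09 (0.0255). It was -0.77 within lot C, where 1 Confluent array stands alone and, over the whole table, 2 probe sets were called higher and 3 lower. With the block the stress gene Nupr1 fell (-0.77, adjusted p = 0.00874, against 0.0904 without it), as did Atf5, a relative of Atf4. In the same fit 2 amino acid genes rose, Psat1 of serine synthesis (0.62, adjusted p = 0.0143, against 0.0987 without the block) and the transporter gene Slc7a5 (0.69, 0.0243 against 0.113). With the block Psat1 lost its call without pair 4 (0.0574) and Slc7a5 without pair 1 (0.0665) or pair 3 (0.0947). Without Confluent replicate 1 the unpaired differences were 0.40 for Psat1 and 0.43 for Slc7a5. Psat1 had 6566, 8004, 7382 and 8859.9 on the Subconfluent arrays, against 3134, 6237, 5291 and 5904 on the Confluent arrays, and the groups did not overlap.

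Genes for folding in the endoplasmic reticulum, beyond the chaperones above, were mostly close to 0. Of 20 tested genes 0 rose and 0 fell, where 2.83% of all tested genes rose and 4.39% fell. For 3 of the 20 the unadjusted p was under 0.05, against 27.2% of all. The list's median was -0.05. Cnpy2, whose product resides in that compartment, stood apart. It had 1309, 339, 1461 and 1175 on the Subconfluent arrays, against 2628, 2049.9, 2654 and 2462 on the Confluent arrays. The groups did not overlap, and the difference of -1.32 ± 0.36 (SE, limma adjusted p = 0.0532) passed with the block (0.00867) and without Subconfluent replicate 2 (-0.87, 0.0296). Next by p came Dnajc3, which encodes the PERK inhibitor p58IPK (-0.32, adjusted p = 0.161), Creld2 (0.41, 0.161) and the BiP partner gene Dnajb11 (0.31, 0.225). Another tested probe set of Dnajc3 was at -0.08 (0.893).

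Among genes of degradation from the endoplasmic reticulum, 0 of 10 rose and 1 fell, where 2.83% of all tested genes rose and 4.39% fell. The unadjusted p was under 0.05 for 2 of the 10, against 27.2% of all. With the block 2 fell, where 12.1% of all tested genes fell. Os9, a lectin that hands misfolded glycoproteins to the degradation complex, had 67.1, 73.9, 243 and 78.5 on the Subconfluent arrays, against 344, 209, 263 and 393 on the Confluent arrays. Subconfluent replicate 3 lay within the Confluent range, and its 3 other values lay far below it. The difference was -1.17 ± 0.31 (SE, limma adjusted p = 0.0488). The call ended without any 1 array other than Subconfluent replicate 3 or Confluent replicate 2 (adjusted p from 0.0903 to 0.116), and its mean signal of 209 reached the minimum only through the Confluent arrays (means of 116 in Subconfluent cells and 302 in Confluent cells), so this call rests on a filter passed through the higher group. Edem2, which takes part in selecting glycoproteins for degradation, was at -0.49 (0.0902; 0.0280 with the block, but 0.0610 to 0.119 there without pair 1, 3 or 4), Derl1 at -0.23 (0.430) and Selenos at -0.28 (0.553). A second probe set of Derl1, a component of the export channel, had -0.75 (0.0194), so its 2 probe sets fell on different sides of the threshold.

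For entry into and export from the endoplasmic reticulum, 0 of 33 tested genes rose and 0 fell, where 2.83% of all tested genes rose and 4.39% fell. An unadjusted p under 0.05 was found for 6 of the 33, against 27.2% of all. The list's median was -0.18. With the block 1 rose and 2 fell, where 10.1% of all tested genes rose and 12.1% fell. Sec63, part of the import channel, was at 0.52 (limma adjusted p = 0.0991; 0.0430 with the block). Srp14, part of the signal recognition particle, was at -0.42 (0.115; 0.0415 with the block). With the block Sec63 lost its call without any 1 pair (0.0880 to 0.122) and Srp14 without any but pair 2 (0.0880 to 0.186). Lman1, a cargo receptor, also fell with the block. The signal peptidase gene Spcs2 was at -0.43 (0.136) and the coat gene Sec23a at -0.55 (0.170), with another probe set of Sec23a at -0.12 (0.883).

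The heat shock proteins of the cytosol and mitochondria, which handle unfolded protein outside the endoplasmic reticulum, are given beside these. Of 18 tested genes 4 rose and 0 fell, where 2.83% of all tested genes rose and 4.39% fell. The unadjusted p was under 0.05 for 7 of the 18, against 27.2% of all. With the block 7 rose and 0 fell, where 10.1% of all rose and 12.1% fell. Those called only with the block were Hsp90aa1, a cytosolic Hsp90 (0.56, adjusted p = 0.00928, against 0.116 without it), the Hsp40 gene Dnajb1 (0.51, 0.0341 against 0.0618) and the co-chaperone gene Stip1 (0.46, 0.0493 against 0.160). The list's median was 0.27 (0.20 to 0.63 over the alternatives), against -0.26 for the unfolded protein response genes (-0.35 to -0.16) and 0.0045 for all genes. Whether the lists differ was not tested, and they were chosen with earlier results of these data known. Over all 4670 tested genes 2357 differences were positive and 2313 negative. Of the 18 heat shock differences 15 were positive and 3 negative. The negative ones were Hspa4 at -0.26, Dnaja1 at -0.25 and Bag3 at -0.01, and Hspa1b was at 0.22 (limma adjusted p = 0.401). These 4 were named after their values were seen. Hsph1, a large Hsp70 partner, had 3080.1, 3379, 2497 and 3187 on the Subconfluent arrays, against 1223, 2154, 1271 and 1538.5 on the Confluent arrays, without overlap. Its difference was 0.98 ± 0.20 (SE, limma adjusted p = 0.0197). Its relative Hspa4l rose by 1.26 ± 0.26 (SE, 0.0212), the Hsp90 partner Fkbp4 by 0.58 ± 0.15 (SE, 0.0413) and Chordc1 by 0.58 ± 0.15 (SE, 0.0484). Another probe set of Fkbp4 was at 0.40 (0.218) and another of Chordc1 at 0.36 (0.220), neither of which passed, and the name of the brighter Fkbp4 probe set marks a sequence shared within a family. Each of the 4 lost its call without single arrays (adjusted p up to 0.0616 for Hsph1, 0.0620 for Hspa4l, 0.0988 for Fkbp4 and 0.114 for Chordc1). For Hsph1 these were Subconfluent replicates 2 and 4 and Confluent replicates 3 and 4, and for Hspa4l Subconfluent replicates 2, 3 and 4 and Confluent replicate 3. For Fkbp4 and Chordc1 it was any array but Confluent replicate 2. Within lot C, with 1 Confluent array, the differences were 1.12 for Hsph1, 1.66 for Hspa4l, 0.48 for Fkbp4 and 0.49 for Chordc1. Chordc1 also did not pass with lot as a fixed block (limma adjusted p = 0.0531), quantile normalization (0.0557) or the log2 scale factor as covariate (0.0576). Nor did it with no variance trend (0.0532), no signal minimum (0.0697) or the mean of its probe sets (0.0700). Fkbp4 did not pass with no variance trend (0.0532) or no minimum (0.0761). Over the alternatives Hsph1 passed in 21 of 26 tests, Hspa4l in 20 of 25, Fkbp4 in 16 of 26 and Chordc1 in 9 of 26. Hspa4l reached the signal minimum only through the Subconfluent arrays (means of 509.9 in Subconfluent cells and 190.4 in Confluent cells). All 4 passed with the block (adjusted p from 0.00296 to 0.0217). There Chordc1 lost its call without pair 1, 3 or 4 (0.0559 to 0.0834), and Hsph1, Hspa4l and Fkbp4 kept theirs without any 1 pair.

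**Figure D4:**
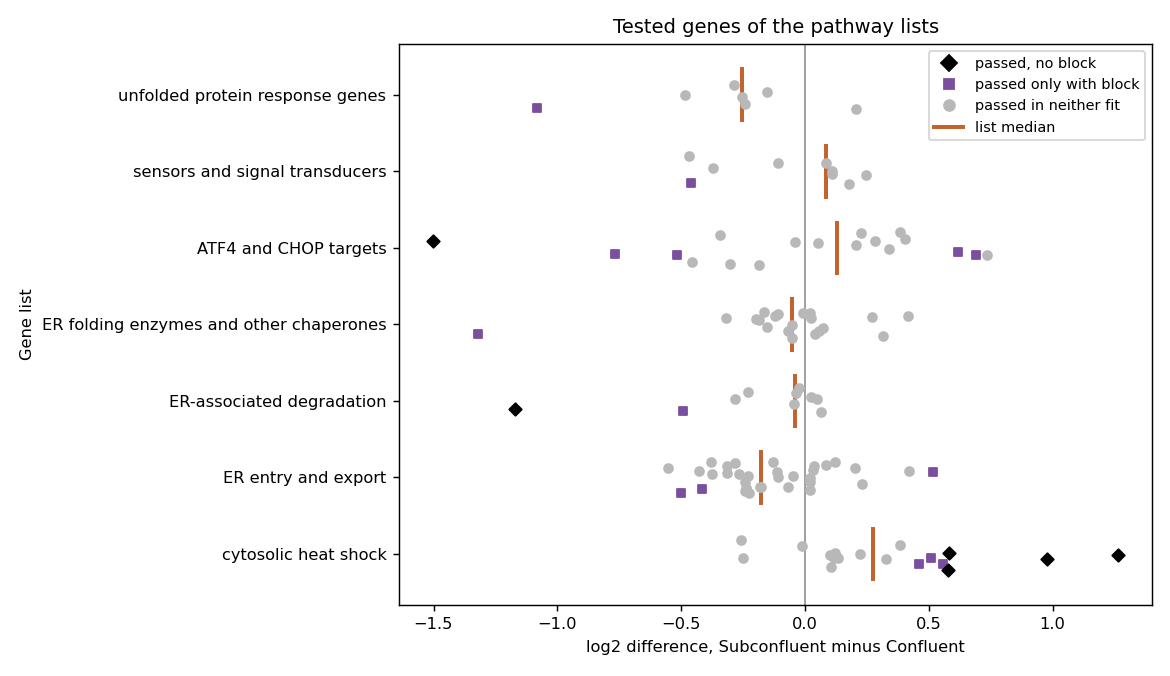
Log2 difference (x axis, Subconfluent minus Confluent) of each tested gene, by list (rows, with random vertical spread). Black diamonds passed without a block, purple squares only with the experiment number as a block, grey circles in neither fit, and orange bars are list medians. The 4 black diamonds to the right belong to the cytosolic heat shock list, which also holds mitochondrial genes, and the 2 to the left are Gadd45a and Os9.

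The genes whose profile over the 8 arrays was nearest to a member were found by the root mean square distance between log2 values centred on each gene's mean. Nearest to Xbp1 were H2-K1, a class I antigen presentation gene from a family of near-identical sequences, Pnrc2 and Ndfip1, at distances of 0.17, 0.17 and 0.18, against a median of 0.76 over all genes. Xbp1 was taken here as the member with the smallest p, so their own differences of -1.24, -1.09 and -1.01 follow from the choice and are a description. Nearest to Hspa5 were Zfp1, Tsc1 and Tspyl1, at 0.087, 0.10 and 0.10, against a median of 0.37.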

How the data were processed

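Per the labels, the authors derived a linear signal for each probe set with Affymetrix's statistical algorithm and brought every array to a target intensity of 500; the software version was not given in the sources used here. Of 12488 probe sets 66 controls were left out, and 10855 had 1 symbol. Where the mean over all 8 arrays reached 200, log2(signal + 50) was tested without further normalization (R 4.3.3, limma 3.58.1 with a variance trend, 6 residual degrees of freedom, two-sided, Benjamini-Hochberg over all 6007). The fit with the block had 3 residual degrees of freedom. A gene was read from its brightest probe set. Each list's 4 genes with the smallest p, and any that passed, are named. Others are marked, except Atf5, Lman1, Hsp90aa1, Dnajb1 and Stip1, named because they passed with the block. Same-numbered arrays correlated at 0.348 to 0.516 in their deviations from group means, others at most at 0.0681, so the experiment number was taken to pair them. Deviations from a group mean sum to 0, which pushes the other correlations down when the same-numbered ones are positive. The contrast between them is thus partly fixed in advance. The script was tested on simulated data. Figures used Python 3.11.15 and matplotlib 3.10.9. Members and lists were chosen with earlier results of these data known.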

Additional observations from a re-analysis of the deposited data

Results flagged for a closer look

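Among 31 genes (the 7 tested members and the list genes named for a small p, without those named only for a call under the block or no minimum), 4 of 62 groups of 4 values held 1 array far from the other 3, meaning that its gap to the nearest value exceeded Dixon's critical share of the group's range on the log2 scale. Chance flags about 1 in 20 groups. Xbp1 had 2195 on Confluent replicate 1, against 833 to 886 on the other Confluent arrays (gap 0.938 of the range). Slc7a5 had 1041 on the same array, against 2122 to 2313 on the others (0.891). Cnpy2 had 339 on Subconfluent replicate 2, against 1175 to 1461 on the others (0.846). Os9 had 243 on Subconfluent replicate 3, against 67.1 to 78.5 on the others (0.899).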

How the results depend on the processing

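Over 27 alternatives the direction of each tested member was the same in all 186 values, and of 179 tests 11 passed, all of Xbp1. The replicate block, another signal minimum or none, and no variance trend cannot change a difference. All alternatives also reuse these arrays, so the shared direction was partly fixed in advance. One member fell, in place of 0, with the replicate block, a minimum of 500, chip lot as a fixed or random block, array weights and the mean of a gene's probe sets. Without 1 array the count ran from 0 to 1, and with the block without 1 pair it was 1. In the other lists the genes that rose (4) and fell (2) numbered 10 and 9 with the block, 2 and 1 with no minimum (the 1 being Casp12, which lay under it), 7 and 2 with chip lot as a fixed block, 7 and 5 with it as a random block, and 0 and 0 within lot C. The count that rose was 2 without the variance trend, and the count that fell was 1 with a pseudocount of 1 or median centring. Without 1 array they ran from 0 to 6 and 0 to 2, and with the block without 1 pair from 5 to 8 and 3 to 10. Over all probe sets 165 were higher and 244 lower. These counts were 597 and 679 with the block, 72 and 136 with no minimum, 453 and 485 with chip lot as a random block and 2 and 3 within lot C, and 368 and 311 were higher with it as a fixed block and with array weights. Without 1 array they ran from 18 to 342 and 80 to 345, and with the block without 1 pair (pairs 1 to 4) they were 258, 652, 223 and 237 higher and 353, 618, 367 and 413 lower. Selenos was 0.048 within lot C, against -0.28. The block changed the member and list calls named above and no other member's call. The cause of these shifts was not tested. Signals near the minimum limit Atf6, Os9 and the brighter Dnajb9 probe set, and the dimmer Dnajb9 probe set and Hyou1 lay far below it.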
